A study of Mus musculus with 24 samples.

Results

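AP-1, a dimeric transcription factor assembled from FOS, JUN and ATF proteins, was followed here through the mRNA of its genes Fos, Fosb, Fosl1, Fosl2, Jun, Junb, Jund and Atf3, together with Egr1 and Myc, which answer many of the same stimuli. These 10 genes were taken by name, as known members of these families and of the early response, with earlier results of these data known. They are 10 of the 55421 mouse genes in the table, and 10 of 10 passed a filter on low counts that left 18046 genes for testing.

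RNA was sequenced from alveolar epithelial type 2 cells (AEC2s), the surfactant-producing progenitors of the lung's gas-exchange surface, of wild-type mice (Krt8+/+) and of mice in which keratin 8 is deleted in every tissue (Krt8–/–). In each genotype there were 4 groups: cells taken fresh (day 0) and cells kept for 1, 3 or 7 days in 2D culture, in which AEC2s lose surfactant genes and gain keratins. Each of the 8 groups held 3 libraries, 1 from each of 3 rounds of isolation and culture on different dates, called isolations 1, 2 and 3. Every round gave all 8 groups, and the cells of the 2 genotypes came from different mice. The labels give no age or sex.

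Total counts per library ran from 10184439 to 19483386. Levels are given as CPM, counts-per-million after TMM scaling, which evens out libraries whose most abundant genes take up different shares of the reads, and the 3 values of a group are always those of isolations 1, 2 and 3 in this order. Keratin 8 itself, the gene removed in the knockout, read 485, 552 and 533 CPM in fresh Krt8+/+ cells and 36.4, 31.1 and 21.2 CPM in fresh Krt8–/– cells. Over all 4 days the 12 Krt8–/– libraries lay between 21.2 and 47.4 CPM and the 12 Krt8+/+ libraries between 485 and 5092 CPM, so every library matched its genotype label. Sftpc, the surfactant gene that defines AEC2s, averaged 186650, 43920, 279 and 48.8 CPM on days 0, 1, 3 and 7 in Krt8+/+ cells. Its averages in Krt8–/– cells were 186910, 41345, 273 and 24.2 CPM, so the name AEC2 was borne out by this marker in fresh cells and far less so from day 3. The cultured cells are called AECs from here on.

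Differences between groups were tested gene by gene with edgeR's quasi-likelihood F test in 1 model of all 24 libraries. A difference counts as past the threshold when its p value, adjusted over the 18046 genes by the Benjamini-Hochberg method, is under 0.05, and the SE is the standard error of a log2 difference. Scaling sets the zero of every comparison: with library totals alone in place of TMM, the median log2 difference of all genes moved by 0.46 from day 0 to day 1 and by 0.45 from day 0 to day 7 in Krt8+/+ cells. The genes past the threshold then split into 7184 higher and 3115 lower on day 1, where TMM gave 4730 and 5144, and into 7507 and 3810 on day 7, where TMM gave 5158 and 5453. In Krt8–/– cells the median moved by 0.49 and 0.43 in these comparisons. Differences below are relative to the TMM zero. In bulk RNA, fewer cells of a type and less RNA per cell cannot be told apart.

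FOS proteins cannot pair with each other and bind DNA as dimers with a JUN protein, whereas JUN proteins can also pair among themselves. Fos, Fosb, Jun, Junb, Atf3, Egr1 and Myc are classical immediate early genes, transcribed within minutes of growth factors, stress or tissue dissociation without new protein synthesis, while Fosl1 and Fosl2 usually follow later and Jund is made more steadily. In the lung epithelium these factors are known from wound repair, stretch, smoke exposure and tumour growth.

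Fos encodes the founding member of the FOS family and lies on chromosome 12, at 85473890 to 85477273 (GRCm38, ENSMUSG00000021250). In Krt8+/+ cells its level was 580, 118.5 and 160 CPM on day 0 and 101.5, 40.2 and 70.9 CPM on day 1. The later libraries gave 30.04, 38.6 and 30.8 CPM on day 3 and 8.92, 5.89 and 6.83 CPM on day 7. Isolation 1 stood out at the top on day 0, and no 2 of these 4 groups overlapped. The Krt8–/– libraries read 811, 254 and 105 CPM on day 0, 109, 41.2 and 65.0 CPM on day 1, 48.5, 65.7 and 40.07 CPM on day 3, and 9.95, 7.24 and 7.65 CPM on day 7. There, day 0 overlapped day 1 and day 1 overlapped day 3, and day 7 lay below every other library. From day 0 to day 1 Fos fell 4.04-fold in Krt8+/+ cells (log2 −2.02, SE 0.59, adjusted p = 0.00698, lower in 3 of 3 isolations) and 5.46-fold in Krt8–/– cells (log2 −2.45, SE 0.60, adjusted p = 0.00203, 3 of 3). By day 7 it had fallen 39.6-fold from day 0 in Krt8+/+ cells (log2 −5.31, SE 0.70, adjusted p = 1.7e-06, 3 of 3) and 46.9-fold in Krt8–/– cells (log2 −5.55, SE 0.70, adjusted p = 1.0e-06, 3 of 3). Isolation 1 weighed on the size of these falls: without it they were −1.33 and −1.76 (log2) to day 1 and −4.45 and −4.59 to day 7, each still past the threshold. The step from day 3 to day 7 alone was −2.19 in Krt8+/+ cells (SE 0.63, adjusted p = 0.0384, 3 of 3) and −2.63 in Krt8–/– cells (SE 0.63, adjusted p = 0.00888, 3 of 3). Without isolation 2 or without isolation 3 this step was not past the threshold in either genotype (−1.97 and −2.20 in Krt8+/+, −2.33 and −2.72 in Krt8–/–).

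Fosb, whose full-length protein activates transcription and whose short splice form is the long-lived ΔFosB, lies on chromosome 7 at 19302696 to 19310051 (ENSMUSG00000003545). Krt8+/+ libraries held 35.4, 4.87 and 9.08 CPM on day 0 and 30.3, 9.11 and 29.1 CPM on day 1, followed by 4.85, 4.93 and 5.90 CPM on day 3 and 2.31, 1.82 and 2.92 CPM on day 7. Day 0 ran from below most day 3 libraries to above every day 1 library, with isolation 1 at its top, while day 1 and day 3 did not overlap. In Krt8–/– cells the values were 34.4, 10.2 and 6.49 CPM on day 0, 31.1, 14.0 and 30.9 CPM on day 1, 2.95, 4.40 and 3.10 CPM on day 3, and 3.66, 2.49 and 4.15 CPM on day 7. Isolation 1 was again highest on day 0, and days 3 and 7 overlapped below the other days. The fresh and day 1 levels differed by a log2 of 0.46 (SE 0.60, adjusted p = 0.535, higher in 2 of 3) in Krt8+/+ cells, which did not pass. It was 1.46 without isolation 1, not past either, and −0.04 without isolation 3. Between days 1 and 3 Fosb fell 4.37-fold in Krt8+/+ cells (log2 −2.13, SE 0.63, adjusted p = 0.0165, 3 of 3) and 7.24-fold in Krt8–/– cells (log2 −2.86, SE 0.65, adjusted p = 0.00329, 3 of 3). Neither call held without isolation 3, where the values were −2.01 and −2.61. From day 0 to day 7 it fell 7.03-fold in Krt8+/+ cells (log2 −2.81, SE 0.66, adjusted p = 0.00108, 3 of 3) and 4.95-fold in Krt8–/– cells (log2 −2.31, SE 0.64, adjusted p = 0.00414, 3 of 3). Without isolation 1 these differences were −1.54, still past, and −1.32, not past.

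Fosl1, which encodes FRA-1, a FOS protein without the transactivation domain of Fos that is tied to cell spreading and migration, lies on chromosome 19 at 5447547 to 5455946 (ENSMUSG00000024912). It was close to absent from fresh cells, with 6, 0 and 2 counts (0.382, 0 and 0.221 CPM) in Krt8+/+ and 8, 2 and 2 counts (0.576, 0.202 and 0.155 CPM) in Krt8–/– libraries. Krt8+/+ AECs then held 359, 207 and 407 CPM on day 1, 59.7, 53.9 and 47.8 CPM on day 3, and 30.6, 29.1 and 70.4 CPM on day 7. Krt8–/– AECs held 341, 196 and 388 CPM on day 1, 46.3, 51.3 and 45.6 CPM on day 3, and 44.5, 18.6 and 78.3 CPM on day 7. Day 1 lay above every other library and day 0 below, days 3 and 7 overlapped, isolation 2 was the lowest on day 1 and isolation 3 the highest on day 7. Fosl1 rose 1345-fold from day 0 to day 1 in Krt8+/+ cells (log2 10.39, SE 0.70, adjusted p = 4.7e-10, higher in 3 of 3) and 923-fold in Krt8–/– cells (log2 9.85, SE 0.67, adjusted p = 6.4e-10, 3 of 3). These folds rest on the few day 0 counts, and without isolation 1 the log2 values were 11.33 and 10.63. It then fell 6.03-fold to day 3 in Krt8+/+ AECs (log2 −2.59, SE 0.42, adjusted p = 1.6e-04, 3 of 3) and 6.45-fold in Krt8–/– AECs (log2 −2.69, SE 0.42, adjusted p = 1.3e-04, 3 of 3). Day 7 still stood 180.1-fold above day 0 in Krt8+/+ cells (log2 7.49, SE 0.69, adjusted p = 1.4e-08, 3 of 3) and 141-fold in Krt8–/– cells (log2 7.14, SE 0.65, adjusted p = 1.2e-08, 3 of 3). Without isolation 1 the day 7 values (log2) became 8.71 and 8.04, and without isolation 3 the Krt8–/– value became 6.22, all past the threshold. Ccdc85b, a gene on the other strand that overlaps Fosl1, averaged 16.0, 31.8, 29.9 and 33.5 CPM on days 0, 1, 3 and 7 in Krt8+/+ cells.

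Fosl2 encodes FRA-2, the other late FOS protein, and lies on chromosome 5 at 32135801 to 32157842 (ENSMUSG00000029135). Its Krt8+/+ levels were 17.5, 12.5 and 18.7 CPM on day 0, 34.0, 50.1 and 36.3 CPM on day 1, 40.3, 51.4 and 46.6 CPM on day 3, and 47.0, 51.3 and 49.0 CPM on day 7. Those in Krt8–/– cells were 20.7, 17.5 and 13.4 CPM on day 0, 33.7, 43.6 and 47.9 CPM on day 1, 38.9, 54.2 and 32.4 CPM on day 3, and 55.2, 58.2 and 62.4 CPM on day 7. All 6 fresh libraries lay below all 18 cultured ones, and among the cultured groups only Krt8–/– day 7 stood clear of the rest. Fosl2 rose 2.47-fold to day 1 in Krt8+/+ cells (log2 1.303, SE 0.21, adjusted p = 3.0e-05, 3 of 3) and 2.43-fold in Krt8–/– cells (log2 1.28, SE 0.21, adjusted p = 3.8e-05, 3 of 3). Against day 0, day 7 was 3.02-fold higher in Krt8+/+ (log2 1.59, SE 0.21, adjusted p = 1.8e-06, 3 of 3) and 3.41-fold higher in Krt8–/– cells (log2 1.77, SE 0.21, adjusted p = 4.5e-07, 3 of 3). No step after day 1 passed: the Krt8+/+ differences were 0.20 and 0.09, the latter −0.06 with library totals, and the Krt8–/– differences 0.00, which was −0.04 with DESeq2 size factors, −0.22 without isolation 2 and 0.27 without isolation 3, and 0.49.

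Jun, the gene of the strongest activator among the JUN proteins, is a single-exon gene on chromosome 4 at 95049034 to 95052222 (ENSMUSG00000052684), overlapped on the other strand by Junos. In Krt8+/+ cells Jun measured 572, 244 and 314 CPM on day 0, 455, 191 and 402 CPM on day 1, 119, 143 and 161 CPM on day 3, and 97.7, 123 and 114 CPM on day 7. The Krt8–/– libraries gave 687, 393 and 210.06 CPM on day 0, 349, 209 and 340.4 CPM on day 1, 124, 131 and 194 CPM on day 3, and 107, 133 and 112 CPM on day 7. Days 0 and 1 overlapped in both genotypes, as did days 3 and 7, whereas day 1 (lowest in isolation 2) and day 3 were apart. From day 0 to day 1 the Krt8+/+ difference was −0.11 (SE 0.36, adjusted p = 0.818, lower in 2 of 3) and turned to 0.31 with library totals, to 0.09 without isolation 1 and to 0.04 without isolation 2, while it was −0.33 without isolation 3. The next step, to day 3, was a fall for Jun of 2.48-fold in Krt8+/+ AECs (log2 −1.31, SE 0.37, adjusted p = 0.0126, 3 of 3), a call that ended without isolation 1 (−0.96) or without isolation 3 (−1.30). The same step in Krt8–/– AECs was −1.0003 (SE 0.37, adjusted p = 0.0531, lower in 3 of 3) and passed with DESeq2 size factors (−1.04) and with isolation as a replicate block (−0.97). The steps of the genotypes differed by 0.31 (SE 0.51, adjusted p = 1.00). Over the whole course Jun fell 3.38-fold by day 7 in Krt8+/+ (log2 −1.76, SE 0.37, adjusted p = 4.1e-04, 3 of 3) and 3.66-fold in Krt8–/– cells (log2 −1.87, SE 0.38, adjusted p = 2.3e-04, 3 of 3). Junos averaged 3.87, 0.752, 0.576 and 0.428 CPM on days 0, 1, 3 and 7 in Krt8+/+ cells. The strand that was counted is not stated, so the reads of genes that overlap cannot be told apart.

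Junb, whose protein is a weaker activator that can oppose Jun, lies on chromosome 8 at 84974484 to 84978718 (ENSMUSG00000052837). Krt8+/+ libraries showed 251, 115 and 135 CPM on day 0, 205, 177 and 158 CPM on day 1, 213, 241 and 189 CPM on day 3, and 269, 214 and 139 CPM on day 7. In Krt8–/– cells Junb stood at 274, 161 and 117 CPM on day 0, 191, 202 and 157 CPM on day 1, 327, 248 and 345 CPM on day 3, and 241, 250.5 and 153 CPM on day 7. Isolation 1 was highest in fresh cells of both genotypes, and in the order of the 8 groups every group overlapped the next. None of the 8 day comparisons passed for Junb by edgeR, with 1 of 8 under an unadjusted p of 0.05 and 0 of 8 past the threshold by DESeq2. The nearest was day 3 against day 1 in Krt8–/– AECs, at 0.74 (SE 0.30, adjusted p = 0.0795, higher in 3 of 3), which passed with isolation as a replicate block (0.77). Day 7 against day 0 gave 0.31 in Krt8+/+ (adjusted p = 0.389), which passed with library totals at 0.75, and 0.22 in Krt8–/– cells. The Krt8–/– difference from day 0 to day 1 was −0.00, or 0.05 with DESeq2 size factors, 0.49 with library totals, 0.37 without isolation 1 and −0.15 without isolation 3. Prdx2, a peroxiredoxin gene on the other strand, overlaps Junb and averaged 130.1, 85.0, 149 and 257 CPM on the 4 days in Krt8+/+ cells.

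Jund, the gene of the JUN protein made in resting cells, lies on the same chromosome at 70698949 to 70700616 (ENSMUSG00000071076). Its levels in Krt8+/+ cells were 415, 307 and 337 CPM on day 0, 256, 241 and 220.4 CPM on day 1, 169.9, 196 and 207 CPM on day 3, and 156, 138.5 and 119 CPM on day 7. No neighbouring days overlapped. Krt8–/– cells held 440.0, 333 and 283 CPM on day 0, 299.7, 358 and 317 CPM on day 1, 219.9, 211 and 308 CPM on day 3, and 151, 142 and 106 CPM on day 7, where days 0, 1 and 3 ran into each other and day 7 lay below. Jund fell 2.56-fold from day 0 to day 7 in Krt8+/+ (log2 −1.36, SE 0.18, adjusted p = 2.2e-06, 3 of 3) and 2.65-fold in Krt8–/– cells (log2 −1.41, SE 0.18, adjusted p = 1.4e-06, 3 of 3). The first day accounted for a 1.48-fold fall in Krt8+/+ cells (log2 −0.56, SE 0.18, adjusted p = 0.0121, 3 of 3). This call ended without isolation 1 (−0.48), without isolation 2 (−0.58) and with library totals (−0.09). In Krt8–/– cells the first day gave −0.11 (SE 0.18, adjusted p = 0.616), or 0.38 with library totals, 0.13 without isolation 1 and −0.23 without isolation 3, and the genotypes differed in this step by 0.45 (SE 0.25, adjusted p = 1.00). From day 3 to day 7 Jund fell 1.85-fold in Krt8–/– AECs (log2 −0.89, SE 0.18, adjusted p = 0.00241, 3 of 3), which did not pass without isolation 3 (−0.56). The Krt8+/+ value was −0.47 (SE 0.18, adjusted p = 0.134), and the difference between the genotypes was −0.42 (SE 0.25, adjusted p = 1.00). The antisense gene Gm11175 overlaps Jund and averaged 10.9, 8.06, 6.70 and 4.71 CPM over the 4 days in Krt8+/+ cells. Its Krt8+/+ libraries of day 1 held 12.2, 0.251 and 11.7 CPM. In Krt8–/– cells it averaged 11.5, 11.6, 11.3 and 4.79 CPM over the 4 days.

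Atf3 encodes a stress-induced partner of JUN proteins that often represses its targets, and lies on chromosome 1 at 191170296 to 191218039 (ENSMUSG00000026628). It went from 24.3, 10.2 and 14.7 CPM on day 0 to 448, 107 and 352 CPM on day 1 in Krt8+/+ cells, with 55.8, 54.05 and 56.2 CPM on day 3 and 38.0, 33.8 and 24.9 CPM on day 7. In Krt8–/– cells the course was 39.7, 16.2 and 9.04 CPM on day 0, 399, 101.5 and 311 CPM on day 1, 73.8, 57.7 and 69.4 CPM on day 3, and 42.4, 36.3 and 16.4 CPM on day 7. Every day 1 library lay above every library of the other days, although isolation 2 reached less than the other isolations, and fresh and day 7 cells stood lowest. Atf3 rose 18.2-fold to day 1 in Krt8+/+ (log2 4.19, SE 0.59, adjusted p = 6.7e-06, 3 of 3) and 12.4-fold in Krt8–/– cells (log2 3.64, SE 0.58, adjusted p = 2.8e-05, 3 of 3). By day 3 it had fallen 5.47-fold from day 1 in Krt8+/+ AECs (log2 −2.45, SE 0.54, adjusted p = 0.00232, 3 of 3). The Krt8–/– fall was 4.04-fold (log2 −2.01, SE 0.53, adjusted p = 0.00964, 3 of 3) and did not pass without isolation 1 (−1.70) or without isolation 3 (−1.93). Day 7 against day 0 gave 0.96 in Krt8+/+ (SE 0.54, adjusted p = 0.135, higher in 3 of 3), past the threshold with library totals (1.40) and with a replicate block (1.05), and 0.54 in Krt8–/– cells (adjusted p = 0.397).

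Egr1, a zinc-finger factor induced through SRF and ELK proteins, lies on chromosome 18 at 34859823 to 34864984 (ENSMUSG00000038418). Krt8+/+ cells held 234, 69.0 and 119 CPM on day 0, 365, 73.5 and 121 CPM on day 1, 78.6, 65.5 and 38.7 CPM on day 3, and 33.3, 24.6 and 56.5 CPM on day 7. The matching Krt8–/– levels were 225, 98.9 and 63.8 CPM on day 0, 267, 81.4 and 109 CPM on day 1, 65.7, 69.1 and 50.3 CPM on day 3, and 27.1, 25.5 and 64.0 CPM on day 7. Isolation 1 was the highest on days 0 and 1 and isolation 3 on day 7, and each of the 8 groups overlapped the next in order. The first day brought 0.41 in Krt8+/+ (SE 0.59, adjusted p = 0.577) and 0.24 in Krt8–/– cells (adjusted p = 0.757). Day 3 differed from day 1 in Krt8+/+ AECs by −1.62 (SE 0.60, adjusted p = 0.0524, lower in 3 of 3), just short of the threshold and past it with DESeq2 size factors (−1.65), without the filter (−1.58) and with a replicate block (−1.38). Day 7 lay 3.69-fold below day 0 in Krt8+/+ (log2 −1.88, SE 0.61, adjusted p = 0.0116, 3 of 3) and 3.32-fold in Krt8–/– cells (log2 −1.73, SE 0.61, adjusted p = 0.0188, lower in 2 of 3). Without isolation 1 neither passed (−1.21 and −0.86), and the Krt8–/– fall also did not pass without isolation 2 (−1.59) or with library totals (−1.30), whereas without isolation 3 it was −2.62 and past.

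Myc encodes the growth-promoting factor that drives ribosome synthesis and cell-cycle entry, and lies on chromosome 15 at 61985391 to 61990374 (ENSMUSG00000022346). Fresh Krt8+/+ cells held 11, 9.75 and 8.52 CPM, and the cultured ones 361, 219 and 223 CPM on day 1, 155, 166 and 131 CPM on day 3, and 169, 141 and 134 CPM on day 7. In fresh Krt8–/– cells Myc stood at 12.0, 10.9 and 10.7 CPM, rising to 335, 238 and 246 CPM on day 1, with 151, 152 and 157 CPM on day 3 and 151, 139 and 134 CPM on day 7. Its 3 tiers, day 1 on top, days 3 and 7 together and day 0 at the bottom, did not overlap. Myc rose 27.2-fold to day 1 in Krt8+/+ (log2 4.77, SE 0.20, adjusted p = 9.8e-13, 3 of 3) and 24.3-fold in Krt8–/– cells (log2 4.60, SE 0.20, adjusted p = 1.2e-12, 3 of 3). It fell 1.78-fold from day 1 to day 3 in both genotypes (log2 −0.83, SE 0.17, adjusted p = 0.00124 in Krt8+/+ and 0.00133 in Krt8–/– AECs, 3 of 3 in each). On day 7 it was 15.1-fold above day 0 in Krt8+/+ (log2 3.92, SE 0.20, adjusted p = 5.0e-12, 3 of 3) and 12.6-fold in Krt8–/– cells (log2 3.65, SE 0.19, adjusted p = 9.8e-12, 3 of 3).

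**Figure D1:**
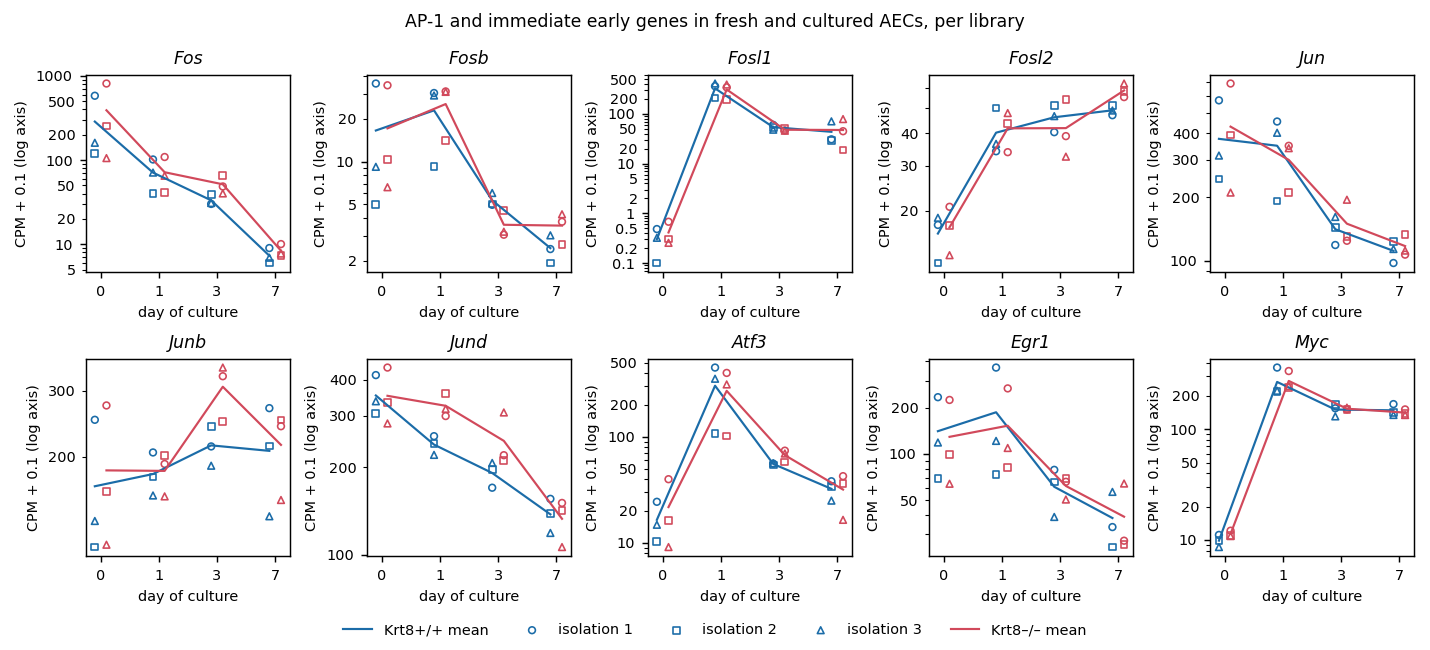
Level of the 10 genes (CPM + 0.1, log axis) against the day of culture (evenly spaced), with 1 point per library, circles, squares and triangles for isolations 1, 2 and 3, and lines through the means of Krt8+/+ (blue) and Krt8–/– (red) cells. Fos dropped from 118.5 to 580 CPM in fresh Krt8+/+ cells to 5.89 to 8.92 CPM on day 7, while Fosl1 went from at most 0.382 CPM to 207 to 407 CPM on day 1.

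The order of the 8 groups by mean level differed between the genes. For Fosl1, Atf3 and Myc the 2 day 1 groups stood first and the 2 day 0 groups last, and for Fosl2 the day 7 groups stood first and the day 0 groups last. In Fos, Jun and Jund the day 0 groups led and the day 7 groups came last. Fosb and Egr1 had their highest mean on day 1, with day 0 overlapping it and day 7 last. Junb had Krt8–/– day 3 first and Krt8+/+ day 0 last, all neighbours overlapping.

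Counted over the 10 genes, the first day in culture raised 4 (Fosl1, Fosl2, Atf3 and Myc) and lowered 2 (Fos and Jund) in Krt8+/+ cells, where 26.2% of all tested genes rose and 28.5% fell. Without isolation 1, without isolation 2 or with library totals, 1 gene (Fos) fell. In Krt8–/– cells 4 rose (Fosl1, Fosl2, Atf3 and Myc) and 1 fell (Fos), against 23.7% and 26.9% of all genes. From day 1 to day 3, 0 rose and 5 fell in Krt8+/+ AECs (Fosb, Fosl1, Jun, Atf3 and Myc), against 14.4% and 11.9% of all genes, and 0 rose and 4 fell in Krt8–/– AECs (Fosb, Fosl1, Atf3 and Myc), against 13.4% and 10.2%. Without isolation 3 these falls numbered 3 in Krt8+/+ and 2 in Krt8–/– AECs. From day 3 to day 7, 0 rose and 1 fell in Krt8+/+ AECs (Fos; 3.11% and 3.47% of all genes) and 0 rose and 2 fell in Krt8–/– AECs (Fos and Jund; 4.4% and 6.15%). In this last step 0 fell in either genotype without isolation 3, and without isolation 2, 0 fell in Krt8+/+ and 1 in Krt8–/– AECs. For these steps DESeq2 also gave 0 that rose, but in Krt8–/– AECs 1 gene, Junb, rose from day 1 to day 3 without the filter, with isolation as a block or with only the 6 libraries compared. With the block the falls of this step also took in Egr1 in Krt8+/+ (6 genes) and Jun in Krt8–/– AECs (5 genes), as they did without the filter and by DESeq2. With only the 6 libraries 3 genes fell from day 3 to day 7 in Krt8+/+ AECs. The shares of all genes depend on the scaling. With library totals 3388 genes rose and 1524 fell from day 1 to day 3 in Krt8+/+ AECs, where TMM gave 2600 and 2140, and 334 and 1024 in the last step, where TMM gave 562 and 626. In Krt8–/– AECs these were 2725 and 1477 (TMM 2419 and 1833) and 518 and 1651 (TMM 794 and 1109), and 7058 and 2772 on the first day (TMM 4279 and 4852). At an unadjusted p under 0.05 (either direction), edgeR counted 6 genes in Krt8+/+ and 8 in Krt8–/– AECs from day 1 to day 3. Of all 18046 tested genes, 6870 and 6534 had such a p in this step. From day 3 to day 7 it counted 2 and 3 of the 10 genes, beside 3468 and 4170 of all tested genes. Over the whole course from day 0 to day 7, 3 rose (Fosl1, Fosl2 and Myc) and 5 fell (Fos, Fosb, Jun, Jund and Egr1) in Krt8+/+ cells, where 28.6% of all genes rose and 30.2% fell. With library totals 5 rose there. The Krt8–/– counts were 3 and 5, against 28.6% and 29.9% of all genes, with 3 that fell when isolation 1 was left out.

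The median log2 difference of the 10 genes was 0.43 from day 0 to day 1 in Krt8+/+ cells, beside 0.00 for all tested genes. For day 3 against day 1 it was −1.20 beside −0.05, and from day 3 to day 7 −0.41 beside −0.01. The Krt8–/– medians for these steps were 0.40 beside −0.01, −0.92 beside −0.03 and −0.43 beside 0.00. The medians of the 10 genes depended on the isolations and the scaling. In Krt8+/+ cells the first step was 0.94 without isolation 1 and 0.83 with library totals, and the second −0.79 without isolation 1. The first Krt8–/– step was 0.90 without isolation 1, 0.055 without isolation 3 and 0.85 with library totals. Consecutive steps share their middle group, and both differences from day 0 share the fresh libraries, so each is given for itself.

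Between the genotypes, 0 of the 10 genes passed on any day. All tested genes past the threshold made up 0.0277%, 0.0166%, 0.0166% and 0.0166% on days 0, 1, 3 and 7. At an unadjusted p under 0.05 edgeR counted 0, 1, 0 and 0 of the 10 on the 4 days. Of all 18046 tested genes it counted 479, 638, 452 and 255. For the 10 genes DESeq2 gave 0 past the threshold on each day. Differences of Krt8–/– from Krt8+/+ cells (log2) lay between −0.12 and 0.47 in fresh cells, and in culture between −0.29 and 0.44 on day 1, −0.58 and 0.63 on day 3, and −0.07 and 0.54 on day 7. The single gene of the 10 at an unadjusted p under 0.05 was Jund on day 1, at 0.44 (SE 0.18, adjusted p = 1.00, higher in 3 of 3). Its Krt8–/– libraries lay at 299.7 to 358 CPM, above the Krt8+/+ libraries at 220.4 to 256 CPM. The number of the 10 genes at such a p depended on the setting. With isolation as a replicate block it was 1 on day 1 and 1 on day 3. With only the 6 libraries compared it was 1 on day 1, 2 on day 3 and 1 on day 7. Without isolation 2 or without isolation 3 it was 0 on day 1. The test of whether the genotype difference varied by day passed for 0 of the 10 genes by edgeR and 0 by DESeq2. At an unadjusted p under 0.05 edgeR counted 0 of the 10, beside 268 of all 18046 tested genes. By edgeR 0.00554% of all genes passed. That share is 1 gene, Krt8, and 0 genes when any 1 isolation was left out. Between genotypes the genes past the threshold were 2 on day 0 without isolation 2, in place of 5. They were 5 on each later day without isolation 3, in place of 3. The fits without an isolation filtered their genes anew. Single contrasts of the genotype difference between 2 days numbered 60 over the 10 genes, of which 0 passed and 0 had an unadjusted p under 0.05.

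In isolation 1 the genotypes also differed in sex genes: Xist, made from the inactive X chromosome, lay between 62.4 and 79.5 CPM in the Krt8+/+ libraries and between 5.92 and 12.0 CPM in those of Krt8–/– cells. Y-linked genes summed to at most 0.441 CPM in the former and to 173 to 191 CPM in the latter. In isolation 1, genotype and sex cannot be told apart. In isolation 2 the libraries of both genotypes had Xist at 42.7 to 154 CPM and Y-linked sums of at most 0.241 CPM. In isolation 3 both had Xist at no more than 2.24 CPM and Y-linked sums of 174 to 229 CPM. The isolations thus differed in sex genes as well.

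Within the FOS family the composition turned over. Expressed as CPM per kb of merged exons, so that genes can be set side by side, Fos made up 96.1% ± 0.931 (SD, n = 3) of the family's summed mRNA in fresh Krt8+/+ cells and 15.1% ± 3.38 on day 1. Its share was 30.5% ± 3.19 on day 3 and 11.2% ± 4.51 on day 7. Fosl1 held 0.0753% of the family on day 0, then 80.8% ± 3.23, 57.3% ± 4.43 and 68.9% ± 9.96 on days 1, 3 and 7. The share of Fosl2 was 1.95%, 2.41%, 10.3% ± 1.32 and 18.5% ± 6.11 on days 0, 1, 3 and 7, and Fosb stayed between 1.31% and 1.92%. These shares depend on the length used. Merged exons span 6243 bases in Fosb and 9680 in Fosl2, where the longest transcripts have 3782 and 6537. With the longest transcript as length, 22 shares of the FOS and JUN families moved by more than 1 SD and 34 did not. Krt8–/– cells went through a like succession: Fos at 96.4% ± 1.55, 15.8% ± 4.48, 43.1% ± 3.84 and 12.1% ± 5.0. Fosl1 there made up 0.110%, 79.6% ± 4.08, 47.3% ± 4.71 and 65.1% ± 15. On day 3 the Fos share was 27.1%, 33.5% and 30.9% in the Krt8+/+ libraries and 43.1%, 47.0% and 39.3% in the Krt8–/– libraries, which did not overlap and were not tested. The family's sum was 126 ± 111, 197 ± 62.4, 46.1 ± 3.40 and 29.8 ± 11.5 CPM per kb on days 0, 1, 3 and 7 in Krt8+/+ cells. On day 0 isolations 1, 2 and 3 had sums of 254, 52.4 and 71.7, and the mean without isolation 1 was 62.1 CPM per kb.

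Among the JUN genes the shares shifted less. In Krt8+/+ cells Jund made up 53.9%, 43.9%, 45.4% and 40.01% of the summed CPM per kb on days 0, 1, 3 and 7. Junb held 17.6%, 23.8%, 37.0% and 42.6% on these days and Jun 28.5%, 32.3%, 17.5% and 17.3%. With the longest transcript as length, the Krt8+/+ day 7 shares were 35.9% for Jund and 48.5% for Junb. Krt8–/– cells had Jund at 51.4%, 52.9%, 44.9% and 38.0%, Junb at 18.5%, 21.6%, 40.9% and 44.1%, and Jun at 30.1%, 25.5%, 14.2% and 17.9%. The sum of the family in Krt8+/+ cells was 402, 331, 252 and 208 CPM per kb.

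**Figure D2:**
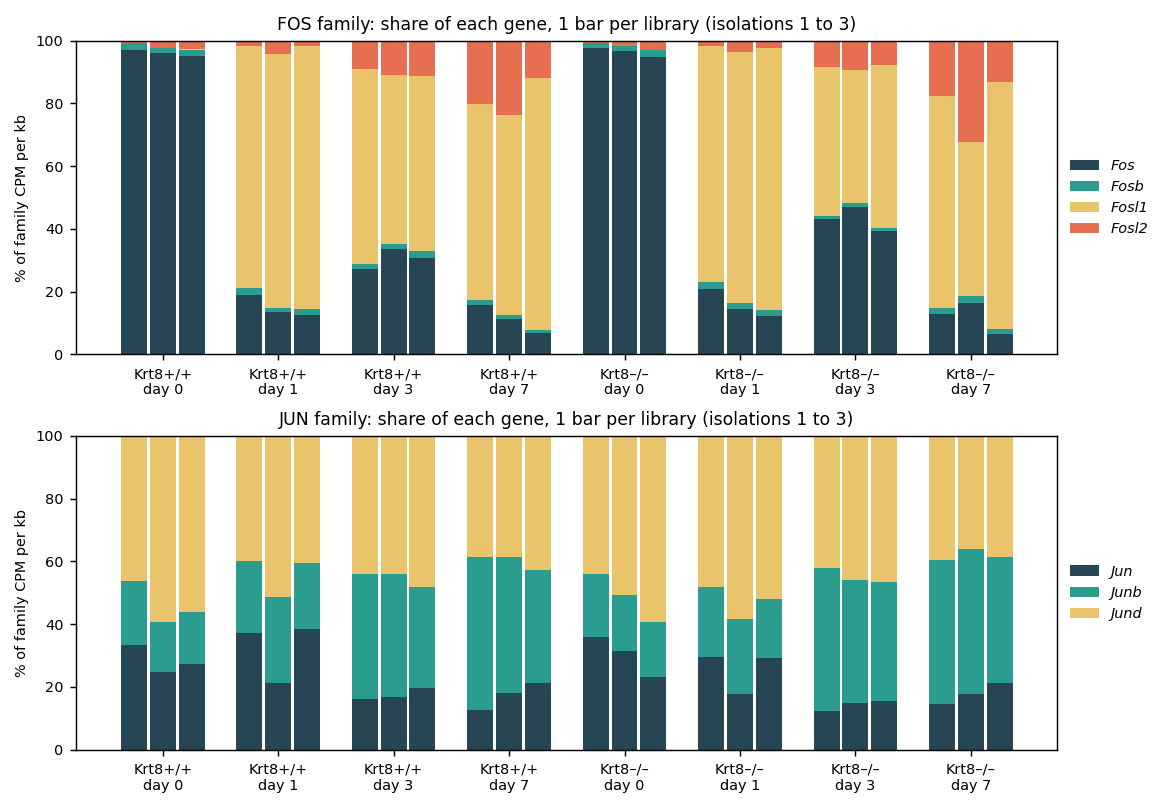
Stacked bars of each library's FOS family (Fos, Fosb, Fosl1, Fosl2) and JUN family (Jun, Junb, Jund), as percent of the family's summed CPM per kb of merged exons, with the 24 libraries ordered by genotype, day and isolation. Fos filled 96.1% of the FOS bars on average in fresh Krt8+/+ cells and Fosl1 80.8% on day 1, while Jund went from 53.9% to 40.01% of the JUN bars between days 0 and 7.

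Fresh cells differed between isolations by amounts that varied from gene to gene. The ratio of the highest to the lowest isolation, from log2 CPM with a small prior count, had a median over the 10 genes of 2.36 in fresh Krt8+/+ cells, beside 1.44 for all tested genes. In fresh Krt8–/– cells it was 2.84 beside 1.43. From CPM without the prior the 2 medians were 2.35, over the 9 genes with counts in every library, and 3.40. On that scale Fos had ratios of 4.90 in Krt8+/+ and 7.70 in Krt8–/– cells and Fosb 7.27 and 5.30. At the low end were Myc with 1.29 and 1.12, Jund with 1.35 and 1.56 and Fosl2 with 1.502 and 1.55. The 10 genes were not tested against the rest. Isolation 1 was the highest for 9 of the 10 genes in fresh Krt8+/+ cells and for 10 of 10 in fresh Krt8–/– cells, and over all genes for 7501 and 6564 of 18046. The Krt8+/+ medians in culture were 2.17 beside 1.70 on day 1, 1.27 beside 1.39 on day 3 and 1.51 beside 1.39 on day 7. Those of Krt8–/– AECs were 1.82 beside 1.54, 1.43 beside 1.36 and 1.52 beside 1.42.

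Markers of some other cells were also highest in isolation 1 of the fresh cells. Fibroblast genes, with 7 of 7 detected and Col3a1 the most abundant, summed to 985, 504 and 295 CPM in Krt8+/+ and 725, 564 and 331 CPM in Krt8–/– libraries of isolations 1, 2 and 3. Macrophage genes, with 8 of 8 detected and Chil3 the most abundant, summed to 146, 67.9 and 16.5 CPM and to 81.9, 68.5 and 12.4 CPM. The AEC2 genes, 7 of 7 with Sftpc on top, summed to 256450, 324550 and 338650 CPM in Krt8+/+ and 284700, 286970 and 344570 CPM in Krt8–/– libraries, so isolation 1 was the lowest. Endothelial genes, 6 of 6 with Kdr on top, summed to 27.7, 19.7 and 18.4 CPM and to 34.2, 22.7 and 23.95 CPM, and lymphocyte genes, 5 of 5 with Cd79a on top, to 5.53, 3.68 and 0.332 CPM and to 14.4, 2.23 and 1.55 CPM. Ciliated and club cell genes, 4 of 4 with Scgb1a1 on top, were lowest in isolation 1 in Krt8+/+ libraries (4715, 10370 and 5584 CPM) and also in Krt8–/– libraries (12434, 12465 and 17570 CPM). The 6 AEC1 genes, led by Ager, gave 2387, 2845 and 2994 CPM and 3360, 3198 and 3537 CPM. Basal cell genes, 2 of 2, stayed between 0 and 1.73 CPM. On day 1 isolation 2 was the lowest in both genotypes for Fos, Fosb, Fosl1, Jun, Atf3, Egr1 and Myc. It was not the lowest for Fosl2, Junb or Jund. Its AEC2 sum was also the lowest, at 19201 CPM beside 105460 and 85058 CPM in Krt8+/+ AECs. In Krt8–/– AECs that sum was 17959 CPM beside 99022 and 78746 CPM. On day 7 isolation 3, the highest in both genotypes for Fosb, Fosl1 and Egr1, had the highest fibroblast sum. That sum was 1907 CPM beside 897 and 999.5 CPM in Krt8+/+ and 3175 CPM beside 955 and 834 CPM in Krt8–/– AECs. On day 1 isolation 2 also had the highest ciliated and club cell sum in either genotype. The part of these markers in the levels of the 10 genes was not tested.

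Some of the 10 genes ran nearly parallel over the 24 libraries. As a description without a test, Pearson's r of log2 CPM was 0.978 for Fosl1 and Myc, 0.905 for Fos and Jund, 0.897 for Fosb and Jun, and 0.883 for Fosb and Egr1. Fos and Jun had an r of 0.873 and Fos and Fosb 0.748, while Fos ran against Fosl2 at −0.764 and against Myc at −0.600. Junb followed none of the others closely, with r from −0.171 to 0.367. The points of these correlations fall into clusters by day.

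Outside the list, the genes most like each one were taken from tested genes whose group means spanned at least 1 log2 unit, and ordered by r over the 24 libraries. Spearman's rho, given beside it, would order them otherwise: by rho Myo5c ranked 219 for Fos, Rnps1 108 for Fosl1, Tnfrsf12a 71 and Nop56 51 for Myc, and Slc6a8 48 for Fosl2, while the other 25 ranked between 1 and 24. Closest to Fos were Myo5c, a myosin motor (r 0.957, rho 0.920), Map3k5, the stress kinase ASK1 (r 0.957, rho 0.979), and Grk3, a receptor kinase (r 0.955, rho 0.960). Fosb was nearest to Tent4b, an RNA nucleotidyltransferase (r 0.930, rho 0.930), Hlf, a bZIP factor of the circadian output (r 0.926, rho 0.934), and Hnrnpdl, an RNA-binding protein gene (r 0.923, rho 0.901). For Fosl1 the nearest were Rnps1, a splicing factor (r 0.986, rho 0.884), the predicted gene Gm9825 (r 0.984, rho 0.948) and Nop56, a nucleolar protein of ribosomal RNA modification (r 0.983, rho 0.939). Those of Fosl2 were Tmed5 of the early secretory pathway (r 0.964, rho 0.927), Samd4, an RNA-binding repressor of translation (r 0.956, rho 0.882), and Slc6a8, the creatine transporter (r 0.955, rho 0.864). None of these was selected on what it does.

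Jun lay closest to Irs2, an adaptor of insulin signalling (r 0.939, rho 0.917), Chka, a choline kinase (r 0.934, rho 0.942), and Cyp51, an enzyme of cholesterol synthesis (r 0.928, rho 0.943). The genes nearest to Junb reached less: Lama3, a laminin chain (r 0.745, rho 0.703), Slc12a7, a potassium-chloride cotransporter (r 0.745, rho 0.823), and Adamtsl4, a matrix protein gene (r 0.741, rho 0.717). Jund was most like Abcc3, an organic anion exporter (r 0.930, rho 0.904), Dnajb2, a co-chaperone (r 0.927, rho 0.907), and Lrrc23 (r 0.927, rho 0.916). The nearest to Atf3 were Eif1ad (r 0.959, rho 0.942), Vps37b of the endosomal sorting machinery (r 0.955, rho 0.921) and Gadd45a, a growth-arrest gene (r 0.952, rho 0.925). Egr1 was again close to Tent4b (r 0.895, rho 0.916), then to Slc5a6, a vitamin transporter (r 0.873, rho 0.870), and Mfap4, a microfibril protein gene (r 0.868, rho 0.872). Myc had the closest neighbours of the 10 genes in r: Tnfrsf12a, the TWEAK receptor (r 0.995, rho 0.881), Nop56 (r 0.990, rho 0.890) and Eif3d, a translation initiation subunit (r 0.988, rho 0.916).

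Around these 10 genes, 8 lists of related genes were counted, and the genes named are among the 2 highest and the 2 lowest differences past the threshold in Krt8+/+ cells on day 1 and on day 7, each against day 0, where all 3 isolations had the same direction. Both comparisons use the same fresh libraries. For each list the median is given beside that of all tested genes, which was 0.00 in both Krt8+/+ comparisons, and −0.01 on day 1 and 0.00 on day 7 in Krt8–/– cells. No gene of any list passed between the genotypes on any day by edgeR, and Krt8 was the only gene of the 18046 whose genotype difference varied by day past the threshold. Of all tested genes, 26.2% rose and 28.5% fell on day 1 and 28.6% and 30.2% on day 7 in Krt8+/+ cells, and in Krt8–/– cells 23.7% and 26.9% and then 28.6% and 29.9%. The counts of a list are to be read beside these shares, and no list was tested against them. At an unadjusted p under 0.05 between genotypes the lists held 0 or 1 gene each per day. Of all tested genes 479, 638, 452 and 255 had such a p on days 0, 1, 3 and 7.

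The other immediate early genes moved mostly upward on the first day, with 20 of 32 tested higher and 6 lower in Krt8+/+ cells (median 2.37) and 20 and 5 in Krt8–/– cells (median 2.46). Npas4 was too low to be tested. Arc, an activity-regulated cytoskeletal gene, rose from 1.26 ± 1.34 to 112 ± 88.6 CPM (mean ± SD, n = 3; log2 6.29, SE 0.92, adjusted p = 1.0e-05), and without isolation 1 the rise was 7.19 on the log2 scale. Sgk1, a serum-induced kinase, went from 12.6 ± 7.11 to 379 ± 199 CPM (log2 4.88, SE 0.45, adjusted p = 2.7e-08). The lowest were Per1, a clock gene, which fell from 18.6 ± 3.99 to 3.99 ± 0.253 CPM (log2 −2.22, SE 0.30, adjusted p = 3.3e-06), and Zfp36, which destabilises AU-rich mRNAs, from 364 ± 51.6 to 84.2 ± 25.1 CPM (log2 −2.11, SE 0.24, adjusted p = 3.2e-07). From day 1 to day 3, 2 of the 32 rose and 18 fell in Krt8+/+ AECs (median −1.07 beside −0.05 for all genes), and 2 and 16 in Krt8–/– AECs (−1.02 beside −0.03). Of all tested genes, 14.4% rose and 11.9% fell in this step in Krt8+/+ and 13.4% and 10.2% in Krt8–/– AECs. By day 7, 13 of the 32 stood above day 0 and 8 below in each genotype, with medians of 0.54 and 0.61. The matricellular genes Ccn2 and Ccn1 were the highest then. Ccn2 rose from 10.5 ± 8.57 to 3218 ± 201 CPM (log2 8.22, SE 0.55, adjusted p = 1.8e-10, and 9.21 on the log2 scale without isolation 1) and Ccn1 from 43.1 ± 26.7 to 2017 ± 103 CPM (log2 5.54, SE 0.47, adjusted p = 5.0e-09). Socs3, a brake on cytokine signalling, fell from 109 ± 37.1 to 6.08 ± 2.77 CPM (log2 −4.16, SE 0.52, adjusted p = 8.0e-07). Nr4a1, an orphan nuclear receptor, fell from 148 ± 121 to 13.7 ± 3.53 CPM (log2 −3.42, SE 0.55, adjusted p = 2.0e-05), or by −2.71 on the log2 scale without isolation 3.

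**Figure D3:**
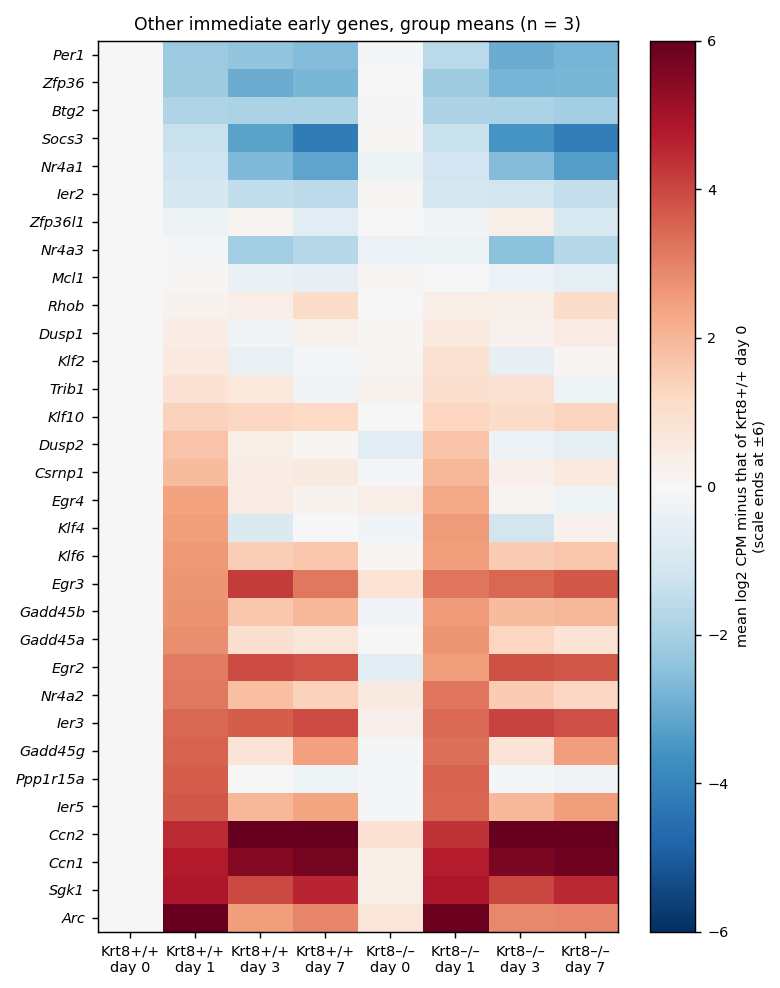
Heat map of the 32 other immediate early genes (vertical) in the 8 groups (horizontal), as mean log2 CPM of 3 libraries minus the Krt8+/+ day 0 mean, with the colour scale ending at −6 and 6. On day 1 20 of the 32 genes were above day 0 past the threshold in each genotype, and Ccn2 averaged 3218 CPM on day 7 in Krt8+/+ AECs beside 10.5 CPM on day 0.

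The other genes of the AP-1 superfamily, MAF, BATF and ATF factors, divided evenly: of 9 tested, 4 rose and 3 fell by day 1 in each genotype (medians 0.07 and −0.06), with 1 that fell in each genotype without isolation 1 and 1 in Krt8–/– cells without isolation 2. Batf2 and Batf3 were too low to be tested. Maff, a small MAF protein without an activation domain, rose from 20.2 ± 4.46 to 107.6 ± 52.7 CPM (log2 2.42, SE 0.39, adjusted p = 2.8e-05). Batf, a JUN partner of immune cells, fell from 10.2 ± 2.69 to 3.36 ± 0.678 CPM (log2 −1.60, SE 0.28, adjusted p = 8.4e-05). Atf7, related to Atf2, fell from 53.5 ± 11.4 to 36.4 ± 2.40 CPM (log2 −0.56, SE 0.18, adjusted p = 0.0117), which did not pass without isolation 1 (−0.48), without isolation 3 (−0.47) or with library totals (−0.09). On day 7, 2 stood higher than on day 0 and 2 lower in Krt8+/+ cells (median −0.06), and 2 and 1 in Krt8–/– cells (median 0.04). Without isolation 1 these counts were 1 and 0 in Krt8+/+ cells, with 1 that was higher in Krt8–/– cells, and without isolation 2, 1 was lower in Krt8+/+ cells. Maff stood at 60.0 ± 17.7 CPM then (log2 1.58, SE 0.38, adjusted p = 0.00127, not past without isolation 1 at 1.43), and Jdp2, a JUN-dimerising repressor, went from 19.1 ± 0.586 to 37.3 ± 3.79 CPM (log2 0.97, SE 0.16, adjusted p = 3.0e-05). Atf7 was at 32.5 ± 4.64 CPM (log2 −0.72, SE 0.18, adjusted p = 0.00159, not past without isolation 1 at −0.51). Batf was at 6.25 ± 1.05 CPM (log2 −0.71, SE 0.27, adjusted p = 0.0322), and this did not pass without isolation 1 (−0.68) or without isolation 2 (−0.34).

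Upstream, the MAP kinases and the SRF, ELK and NAB regulators had 5 of 19 higher and 5 lower on day 1 in Krt8+/+ cells (median −0.15), near the shares of all tested genes, and 7 and 3 in Krt8–/– cells (median 0.11). Elk4, a cofactor of SRF, rose from 25.5 ± 5.12 to 64.3 ± 15.7 CPM (log2 1.33, SE 0.21, adjusted p = 2.1e-05) and Map2k3, a kinase upstream of p38, from 212 ± 17.8 to 475 ± 106 CPM (log2 1.17, SE 0.17, adjusted p = 7.9e-06). Nab2, a corepressor of EGR factors, fell from 43.8 ± 3.72 to 11.1 ± 0.454 CPM (log2 −1.98, SE 0.40, adjusted p = 3.1e-04) and Mapk3, which encodes ERK1, from 173.5 ± 20.1 to 71.5 ± 6.70 CPM (log2 −1.28, SE 0.12, adjusted p = 3.5e-08). The Krt8+/+ genes that fell numbered 3 without isolation 1, 2 without isolation 2 and 3 without isolation 3. Those that rose in Krt8–/– cells numbered 4 without isolation 1. By day 7, 8 were higher and 2 lower than on day 0 in Krt8+/+ (median 0.34) and 11 and 3 in Krt8–/– cells (median 0.58), with 1 lower in either genotype without isolation 1, and in Krt8–/– cells also without isolation 2. With library totals the Krt8+/+ genes that rose numbered 9 on day 1 and 15 on day 7. Map2k6, a second kinase upstream of p38, rose from 0.200 ± 0.157 to 1.18 ± 0.273 CPM (log2 2.40, SE 0.82, adjusted p = 0.0158), but not past without isolation 1 (3.13), 2 (2.32) or 3 (2.21). Elk3, an ELK factor, rose from 10.7 ± 0.906 to 48.5 ± 6.29 CPM (log2 2.18, SE 0.20, adjusted p = 1.6e-08). Mapk3 stood at 96.0 ± 10.3 CPM on day 7 (log2 −0.85, SE 0.12, adjusted p = 3.5e-06). Nab1, a second EGR corepressor, went from 130.03 ± 3.41 to 102 ± 10.1 CPM (log2 −0.35, SE 0.13, adjusted p = 0.0262), not past without isolation 1 (−0.36) or 2 (−0.20) and reversed to 0.10 with library totals.

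Feedback genes of the ERK pathway diverged, 5 of 13 higher and 5 lower on day 1 in each genotype (medians −0.18 and 0.33), with 3 higher in Krt8+/+ cells without isolation 1 or 2. Etv4, an ETS factor downstream of ERK, had 3 counts in the fresh Krt8+/+ libraries together, 91 counts on day 1 and 690 counts on day 7, where it averaged 16.6 ± 5.32 CPM (adjusted p = 5.4e-06 on day 1 and 2.4e-09 on day 7). Its relative Etv5, a gene of mature AEC2s, fell from 1809 ± 77.4 to 112 ± 98.0 CPM on day 1 (log2 −4.01, SE 0.62, adjusted p = 1.7e-05, and −4.91 without isolation 1) and to 27.7 ± 8.57 CPM on day 7 (log2 −6.03, SE 0.68, adjusted p = 2.2e-07). Dusp5, a nuclear ERK phosphatase, rose from 12.2 ± 1.01 to 79.3 ± 19.1 CPM on day 1 (log2 2.69, SE 0.27, adjusted p = 6.8e-08) and 118 ± 4.76 CPM on day 7 (log2 3.26, SE 0.27, adjusted p = 3.7e-09). Spry1, an inhibitor of receptor signalling, fell from 484 ± 78.1 to 37.4 ± 15.4 CPM on day 1 (log2 −3.69, SE 0.26, adjusted p = 7.4e-10) and 31.6 ± 5.27 CPM on day 7 (log2 −3.94, SE 0.26, adjusted p = 1.7e-10). The day 7 counts were 5 higher and 3 lower in Krt8+/+ (median 0.25) and 5 and 4 in Krt8–/– cells (median 0.18).

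Of the known AP-1 target genes most rose: 16 of 18 were higher and 1 lower on day 1 in Krt8+/+ cells (median 3.65) and 17 and 1 in Krt8–/– cells (median 3.45). On day 7, 17 of 18 were higher in Krt8+/+ (median 4.11) and 16 of 18 in Krt8–/– cells (median 5.10), and 0 lower in either genotype. By edgeR 17 of the 18 in Krt8+/+ and 16 in Krt8–/– cells had an unadjusted p under 0.05 on day 7 in either direction. DESeq2 gave 0 lower. Of all 18046 tested genes, 11348 in Krt8+/+ and 11242 in Krt8–/– cells had such a p by edgeR on day 7. The medians of the list were the same with the genes absent from fresh cells set at their bound. Mmp10 and Mmp13, secreted proteases of matrix and wound edge, had 0 counts in the fresh Krt8+/+ libraries. Mmp10 averaged 11.6 ± 1.95 CPM on day 1, at least 131-fold higher (adjusted p = 9.8e-06), and 36.9 ± 32.9 CPM on day 7, at least 418-fold higher (adjusted p = 5.0e-07), with 74.8, 18.7 and 17.0 CPM in isolations 1, 2 and 3. Mmp13 averaged 11.4 ± 8.50 CPM on day 1, at least 129-fold higher (adjusted p = 1.3e-04), and 84.8 ± 43.1 CPM on day 7, at least 961-fold higher (adjusted p = 1.6e-06). These bounds take 3 counts over the fresh group as a floor and cover counting error only. The 1 gene that fell on day 1 was Ccnd1, cyclin D1, from 320 ± 25 to 235 ± 26.6 CPM (log2 −0.44, SE 0.17, adjusted p = 0.0288). That fall did not pass without isolation 1 (−0.35), without isolation 3 (−0.45) or with DESeq2 size factors (−0.38), and turned to 0.04 with library totals. The Krt8–/– count of 1 that fell also went to 0 without isolation 1 or 3. Markers of other cells moved over the same days. The macrophage sums of isolations 1, 2 and 3 went from 146, 67.9 and 16.5 CPM in fresh cells to 433, 256.5 and 51.5 CPM on day 1 in Krt8+/+, and from 81.9, 68.5 and 12.4 to 251, 204 and 42.7 CPM in Krt8–/– cells. The fibroblast means of 595 and 540 CPM in fresh Krt8+/+ and Krt8–/– cells stood beside 184 and 150 CPM on day 1. By day 7 the 3 libraries had 897, 999.5 and 1907 CPM in Krt8+/+ and 955, 834 and 3175 CPM in Krt8–/– AECs. The part of such cells in the rises of this list was not tested.

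Of the partners and antagonists in the MYC network, 1 of 10 was higher and 6 lower on day 1 in Krt8+/+ (median −0.70) and 1 and 4 in Krt8–/– cells (median −0.54), where 28.5% and 26.9% of all tested genes fell. With library totals the counts were 3 higher and 2 lower in Krt8+/+ and 2 and 2 in Krt8–/– cells, and without isolation 3, 3 were lower in Krt8+/+ cells. Without isolation 1, 2 were higher in Krt8+/+ and 0 in Krt8–/– cells, where 0 were higher without isolation 3 too and 2 were lower without isolation 2. Mycn, a paralogue of Myc, rose from 0.870 ± 0.708 to 7.62 ± 5.37 CPM on day 1 (log2 3.13, SE 0.60, adjusted p = 1.9e-04, or 2.45 without isolation 1 and 4.35 without isolation 2). Mxd4, a MAX partner that opposes MYC, fell from 109 ± 2.69 to 28.9 ± 6.53 CPM (log2 −1.91, SE 0.16, adjusted p = 7.5e-09). Mycl, the third paralogue, fell from 6.59 ± 1.97 to 1.91 ± 0.949 CPM on day 1 (log2 −1.76, SE 0.37, adjusted p = 5.1e-04) and stood at 12.1 ± 2.67 CPM on day 7 (log2 0.88, SE 0.35, adjusted p = 0.0363). The day 7 rise of Mycl did not pass without isolation 1 (0.63), 2 (0.93) or 3 (1.15). On day 7 Mycn was at 11.7 ± 1.27 CPM (log2 3.75, SE 0.60, adjusted p = 2.1e-05, or 4.59 without isolation 2). Mxd1, another antagonist, had fallen from 74.2 ± 2.72 to 9.88 ± 1.35 CPM (log2 −2.91, SE 0.32, adjusted p = 1.7e-07) and Mxd4 to 32.0 ± 0.762 CPM (log2 −1.77, SE 0.16, adjusted p = 9.5e-09). The counts on day 7 were 2 higher and 5 lower in Krt8+/+ (median −0.25) and 1 and 5 in Krt8–/– cells (median −0.31). Without isolation 1 or 3, 1 was higher in Krt8+/+ cells, without isolation 3, 3 were lower there, and without isolation 2, 2 were higher in Krt8–/– cells. With library totals 3 and 3 were counted on day 7 in Krt8+/+ and 4 and 3 in Krt8–/– cells.

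The MYC target genes counted here belong to ribosome, nucleotide and polyamine synthesis, translation (Eif4e) and the cell cycle (Cdk4). Of these, 11 of 12 rose by day 1 and 12 of 12 by day 7 in each genotype. Their medians were 1.80 and 1.45 in Krt8+/+ and 1.91 and 1.55 in Krt8–/– cells. In the 4 comparisons 0 were lower by edgeR and 0 by DESeq2. In each genotype 11 of 12 on day 1 and 12 of 12 on day 7 had an unadjusted p under 0.05 by edgeR in either direction. Of all 18046 tested genes, 10716 in Krt8+/+ and 10186 in Krt8–/– cells had such a p on day 1. On day 7 these were 11348 and 11242. Nop58, a nucleolar protein of ribosomal RNA modification, rose from 37.1 ± 5.69 to 269 ± 3.36 CPM on day 1 (log2 2.85, SE 0.14, adjusted p = 5.5e-12). Srm, spermidine synthase, rose from 22.4 ± 2.26 to 138 ± 32.1 CPM on day 1 (log2 2.62, SE 0.24, adjusted p = 2.4e-08) and 118 ± 20.1 CPM on day 7 (log2 2.40, SE 0.24, adjusted p = 3.7e-08). Npm1, nucleophosmin, rose from 117 ± 26.4 to 595 ± 31.0 CPM on day 7 (log2 2.35, SE 0.20, adjusted p = 4.5e-09).

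Heat shock genes are known to be induced by tissue digestion, and 7 of 10 stood higher on day 1 than in fresh cells and 0 lower in Krt8+/+ (median 1.36) and 5 and 0 in Krt8–/– cells (median 0.98). Of the 10, 7 and 5 had an unadjusted p under 0.05 by edgeR in either direction, and DESeq2 also gave 0 lower. Of all 18046 tested genes, 10716 in Krt8+/+ and 10186 in Krt8–/– cells had such a p by edgeR on day 1. Without isolation 3, 3 of the 10 were higher and 1 lower in Krt8–/– cells. Hspa1a and Hspa1b, the paired inducible HSP70 genes, had the highest rises. Hspa1a went from 31.7 ± 21.6 to 182 ± 113 CPM (log2 2.51, SE 0.79, adjusted p = 0.0109), not past without isolation 1 (2.59) and 3.13 without isolation 2. Hspa1b went from 69.9 ± 46.3 to 354 ± 217 CPM (log2 2.33, SE 0.70, adjusted p = 0.00799), not past without isolation 1 (2.45). In fresh cells Hspa1a read 50.5, 36.4 and 8.08 CPM in Krt8+/+ and 103, 136 and 8.34 CPM in Krt8–/– libraries, so isolation 3 was the lowest in both. On day 7, 4 were higher and 0 lower than on day 0 in Krt8+/+ (median 0.54) and 3 and 3 in Krt8–/– cells (median 0.33). The lower ones numbered 2 in Krt8+/+ cells without isolation 3, and without isolation 2 the Krt8–/– counts were 5 and 1. Of the 10 Krt8+/+ differences, 4 had an unadjusted p under 0.05 by edgeR, and DESeq2 gave 0 lower. Of all 18046 tested genes, 11348 had such a p by edgeR in this comparison. Hspb1, a small heat shock protein gene, rose from 82.5 ± 24.7 to 318 ± 60.5 CPM (log2 1.94, SE 0.27, adjusted p = 3.9e-06) and Hspd1, a mitochondrial chaperonin gene, from 208 ± 20.7 to 565 ± 56.2 CPM (log2 1.44, SE 0.15, adjusted p = 8.2e-08).

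Of the 10 genes 7 were found in the RefSeq promoter table, and Fosl1, Myc and Egr1 were not. The promoters of Fos, Fosb and Jun are shown, which fell by day 7 in both genotypes. Jund fell too, but its window ends at 70697788, before the start of the gene at 70698949, and is left out. The sequences are from RefSeq on GRCm38.p6, run 5′ to 3′ on the strand of the gene, and cover 250 bases before to 50 bases after its start. Fos is at chr12:85473640-85473939 on the + strand, Fosb at chr7:19309996-19310295 on the − strand, and Jun at chr4:95052173-95052472 on the − strand. Both strands were searched for the CArG box of SRF by its name, the AP-1 site TGACTCA or TGAGTCA, the cAMP response element TGACGTCA, the E-box CACGTG and the TATA box TATAAA. Of 32851 promoters, 1.63% held a CArG box, 5.20% an AP-1 site, 1.79% a cAMP response element, 7.15% an E-box and 13.6% a TATA box. Over the 7 windows the only matches were the TATA box of Fos, in capitals at −33 to −28 from the start, and 1 in Junb at 1 to 6. No match means only that these letters are not in the window.
Fos: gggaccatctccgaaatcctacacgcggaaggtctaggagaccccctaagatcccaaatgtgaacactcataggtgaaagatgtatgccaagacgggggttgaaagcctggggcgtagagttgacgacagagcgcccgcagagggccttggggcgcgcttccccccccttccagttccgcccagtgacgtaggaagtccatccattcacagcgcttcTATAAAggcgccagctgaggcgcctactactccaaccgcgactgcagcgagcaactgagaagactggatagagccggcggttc
Fosb: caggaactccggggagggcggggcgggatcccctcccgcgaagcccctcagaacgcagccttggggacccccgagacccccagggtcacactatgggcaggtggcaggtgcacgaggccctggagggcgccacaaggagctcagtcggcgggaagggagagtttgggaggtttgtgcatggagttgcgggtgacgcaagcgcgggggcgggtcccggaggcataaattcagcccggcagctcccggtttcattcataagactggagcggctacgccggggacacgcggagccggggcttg
Jun: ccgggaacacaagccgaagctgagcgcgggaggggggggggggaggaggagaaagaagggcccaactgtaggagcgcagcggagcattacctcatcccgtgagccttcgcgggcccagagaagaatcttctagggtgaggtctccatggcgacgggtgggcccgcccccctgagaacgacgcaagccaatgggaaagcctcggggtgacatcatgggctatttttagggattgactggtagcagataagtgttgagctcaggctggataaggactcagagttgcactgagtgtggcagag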

How the data were processed

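The authors deposited raw counts per gene for 24 libraries. Their notes name cutadapt 2.3, STAR 2.7.8a, RSEM 1.3.3 and GRCm38 without saying which made the counts, and give no annotation, strand or rounding. Symbols of GENCODE matched 55154 of 55421 identifiers, and 5 reporter entries held 0 counts. In R 4.3.3, edgeR 4.0.16 filtered genes (filterByExpr, minimum count 10, minimum total 15), scaled by TMM and fitted 1 quasi-likelihood model of 8 groups with 16 residual degrees of freedom, and p values were adjusted by Benjamini-Hochberg. Log2 CPM for r used a prior count of 2. Alternatives were DESeq2 1.42.0 size factors and test, library totals, no filter, isolation as a replicate block, each isolation left out, and the 6 libraries compared. Paired libraries of an isolation had residual correlations of −0.0345 to 0.548 over 12 comparisons. Libraries of a group were checked in 24 pairs for duplicates, of which there were 0 (chi-square between 10.2 and 122 per gene). The 10 genes and the lists were chosen with earlier results of these data known. List genes named in the report are among those ranked there, where 1 group averaged at least 1 CPM.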

Additional observations from a re-analysis of the deposited data

How the results depend on the processing

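Of the log2 differences of the 10 genes recomputed under the alternatives, 662 kept their direction and side of the threshold, 20 were newly past it, 20 no longer past it and 27 turned direction. None of those that turned was past the threshold with TMM. For list genes 436 were kept, 30 no longer passed and 2 turned. Of counts, 172 of the 10 genes', 88 of all genes' and 941 of the lists' stayed within 1.5 times, and 16, 28 and 211 did not. Of the family shares 202 moved by less than 1 SD and 22 by more, the latter with the longest transcript as length. Of the likeness values 58 moved by less than 0.1, and Rnps1 with Fosl1 (rho 0.884) and Tnfrsf12a with Myc (rho 0.881) moved by more.

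Junb from day 0 to day 1 in Krt8–/– cells turned to 0.047 with DESeq2 size factors and with the DESeq2 test, 0.49 with library totals, 0.0065 without the filter, 0.059 with isolation as a replicate block and 0.078 with the 6 libraries compared, and ran from −0.15 to 0.37 with 1 isolation left out. Fosl2 from day 1 to day 3 in Krt8–/– AECs was −0.041 with DESeq2 size factors and test, −0.0056 with the replicate block, −0.035 with the 6 libraries and −0.22 to 0.27 with 1 isolation left out. With library totals, Jun from day 0 to day 1 in Krt8+/+ cells was 0.31, Jund in this step in Krt8–/– cells 0.38, Fosl2 from day 3 to day 7 in Krt8+/+ AECs −0.062, Ccnd1 on day 1 0.036 and Nab1 on day 7 0.10.

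With 1 isolation left out, the Krt8+/+ first step ranged from −0.042 to 1.46 for Fosb, −0.33 to 0.090 for Jun and −0.0035 to 0.42 for Junb, and the Krt8–/– step of Jund from −0.23 to 0.13. From day 3 to day 7 the ranges were −0.29 to 0.090 for Junb and −0.11 to 0.071 for Myc in Krt8+/+ AECs, and −0.25 to 0.36 for Fosb and −0.62 to 0.41 for Fosl1 in Krt8–/– AECs.

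Of the 10 genes, 1 fell on day 1 in Krt8+/+ cells with library totals and with the 6 libraries, and 1 to 2 with 1 isolation left out. By day 7, 5 had risen with library totals. From day 1 to day 3, 1 rose in Krt8–/– AECs without the filter, with the replicate block and with the 6 libraries. From day 3 to day 7, 3 fell in Krt8+/+ AECs with the 6 libraries. With 1 isolation left out, 3 to 5 fell from day 1 to day 3 in Krt8+/+ and 2 to 4 in Krt8–/– AECs, 0 to 1 and 0 to 2 from day 3 to day 7, and 3 to 5 from day 0 to day 7 in Krt8–/– cells.

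All genes past the threshold between genotypes numbered 10 on day 0, 6 on day 1 and 2 by the varying genotype difference without the filter, and 9 on day 0, 5 on day 1, 8 on day 3 and 3 by the varying difference with DESeq2. With 1 isolation left out they were between 2 and 5 on days 0, 1 and 7, between 3 and 5 on day 3, and 0 by the varying difference. From day 1 to day 3 the Krt8+/+ count was 2879 with the 6 libraries and 2614 to 3085 with 1 isolation left out, and the Krt8–/– count 1842 to 2691. From day 3 to day 7 these were 325 to 572 and 834 to 969. Fits with 1 isolation less hold fewer libraries. For the other shifts the cause was not tested.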
